A study of Mus musculus with 4 samples.

Results

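Autophagy and the lysosome form one degradative route, and 40 of its genes were followed in the ischemic hippocampus of mice that lack aromatase in forebrain neurons. The genes were picked by symbol from knowledge of the pathway, with earlier results of these data known, out of 22609 gene symbols with counts. They were 20 for the autophagy machinery, with the transcription factor Tfeb counted there, and 20 for lysosomal enzymes and membrane proteins. The lysosomal genes include Psap and Grn, which encode secreted precursors. All 40 were matched, 1 of them, Tfeb, under its older symbol Tcfeb. The data were 4 RNA-Seq libraries of whole hippocampus, 2 of FLOX+GCI and 2 of FBN-ARO-KO+GCI. All mice were adult, age-matched females that had been ovariectomized a week before global cerebral ischemia (GCI), in which both common carotid arteries were clipped for 20 min and then reperfused for 24 h. The libraries are called FLOX and FBN-ARO-KO libraries from here on. FBN-ARO-KO mice lose a floxed Cyp19a1, the aromatase gene, through Cre driven by the CaMKIIα promoter, so the deletion is limited to excitatory forebrain neurons and the other cells of the hippocampus keep the gene. FLOX mice are the controls. No sham libraries entered the comparison, so each value sets ischemic tissue against ischemic tissue. Whether the 2 libraries of a genotype came from separate mice is not given in the sources used here, and the p-values measure only the spread between these libraries.

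In macroautophagy, the ULK kinases and the BECN1 lipid kinase complex start a membrane sheet, which ubiquitin-like conjugation steps decorate with ATG8 proteins (LC3 and GABARAP). Receptors such as OPTN and NBR1 tie cargo to ATG8, and the closed autophagosome then fuses with a lysosome, whose acid hydrolases digest its content. TFEB is the transcription factor best known for driving lysosomal and autophagy genes together. Neurons depend on this route because they cannot dilute damaged organelles by dividing, and it is engaged in brain ischemia.

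The libraries held between 24333396 and 33076795 counts on genes. Between 35.1% and 36.5% of alignments were set aside by the authors as not unique, which matters for genes with copies elsewhere. The target gene Cyp19a1 had 4 and 1 counts for FLOX and 2 and 2 counts for FBN-ARO-KO, so the deletion could not be checked from these files. Hippocampal markers were present in all libraries, with Neurod6 at 264.7 to 312 and Prox1 at 50.5 to 61.9 CPM (counts scaled to library size with TMM factors). Wfs1 had 180 and 176 CPM for FLOX and 157 and 161 CPM for FBN-ARO-KO, and Zbtb20 had 6.5 to 11.5 CPM. Without overlap, Neurod6 and Prox1 were higher in FBN-ARO-KO (log2 fold changes 0.15 and 0.19) and Wfs1 lower (-0.16), while Zbtb20 overlapped. Of all tested genes, 51.8% were without overlap in this way. Across genes, the log2 ratio of the genotypes was lower where transcripts were richer in GC (Spearman's rho -0.55 over 14023 genes, a description, since genes do not count as replicates), and FBN-ARO-KO replicate 2 differed from replicate 1 in the same way (rho of -0.48). Selected values are therefore also given after a correction that takes out, library by library, the dependence on GC content and transcript length. After it, the log2 fold changes were -0.0051 for Neurod6, 0.17 for Prox1, -0.029 for Wfs1 and -0.0010 for Zbtb20.

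None of the 40 genes differed between genotypes at an adjusted p under 0.05 in edgeR's quasi-likelihood test, where 2 of the 14527 genes tested did (0.0138%). DESeq2 called 0 of the 40 and 287 of the 17821 genes it fitted (1.61%). All 40 passed the filter on low counts, and their smallest adjusted p was 0.238 in edgeR. At an unadjusted p under 0.05 there were 7, which is 17.5% of the genes against 16.5% of all genes tested. These were 4 of the autophagy machinery, with Ulk2 and Atg12 higher and Map1lc3a and Tfeb lower in the FBN-ARO-KO libraries, and 3 of the lysosome, with Cd63, Ctsa and Gaa lower. Those 2 higher genes compare with 8.72% of all tested genes, and the 5 lower with 7.82%. The autophagy count was 1 without FLOX replicate 2, where 12.9% of all genes had such a p, and 1 without FBN-ARO-KO replicate 2, where 5.64% did. The lysosome count was 1 without FLOX replicate 1 (15.9% of all genes) and 1 without FBN-ARO-KO replicate 2.

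Of the 40 genes, 19 had a log2 fold change above 0 and 21 below 0, beside 48.7% and 51.3% of all genes tested. The median log2 fold change was 0.0073 over the autophagy machinery and -0.038 over the lysosomal genes, beside -0.0074 over all genes tested, and without its sign the median difference of the 40 genes was 0.098 on the log2 scale against 0.158 for all genes. For 37 of the 40 genes the 95% interval from the edgeR fit lay wholly within 1.5-fold in either direction, which held for 65% of all genes tested. The exceptions were Park2, Tfeb and Cd63, whose intervals reached past a 1.5-fold lower level. The median standard error was 0.085 for the 40 genes and 0.12 for all genes tested. The 40 genes were not compared with genes of like level, so smaller differences and narrower intervals cannot be read as a trait of the route. The libraries of the genotypes did not overlap for 23 of the 40 genes, 9 higher and 14 lower, where 51.8% of all tested genes were separated in this way (25.9% higher and 25.8% lower). Summed over its 20 genes, the autophagy machinery had 2646 and 2683 CPM in the FLOX libraries and 2706 and 2727 in the FBN-ARO-KO libraries. The lysosomal genes summed to 5233 and 5186 CPM in the FLOX libraries and 5153 and 5007 in the FBN-ARO-KO libraries.

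**Figure D1:**
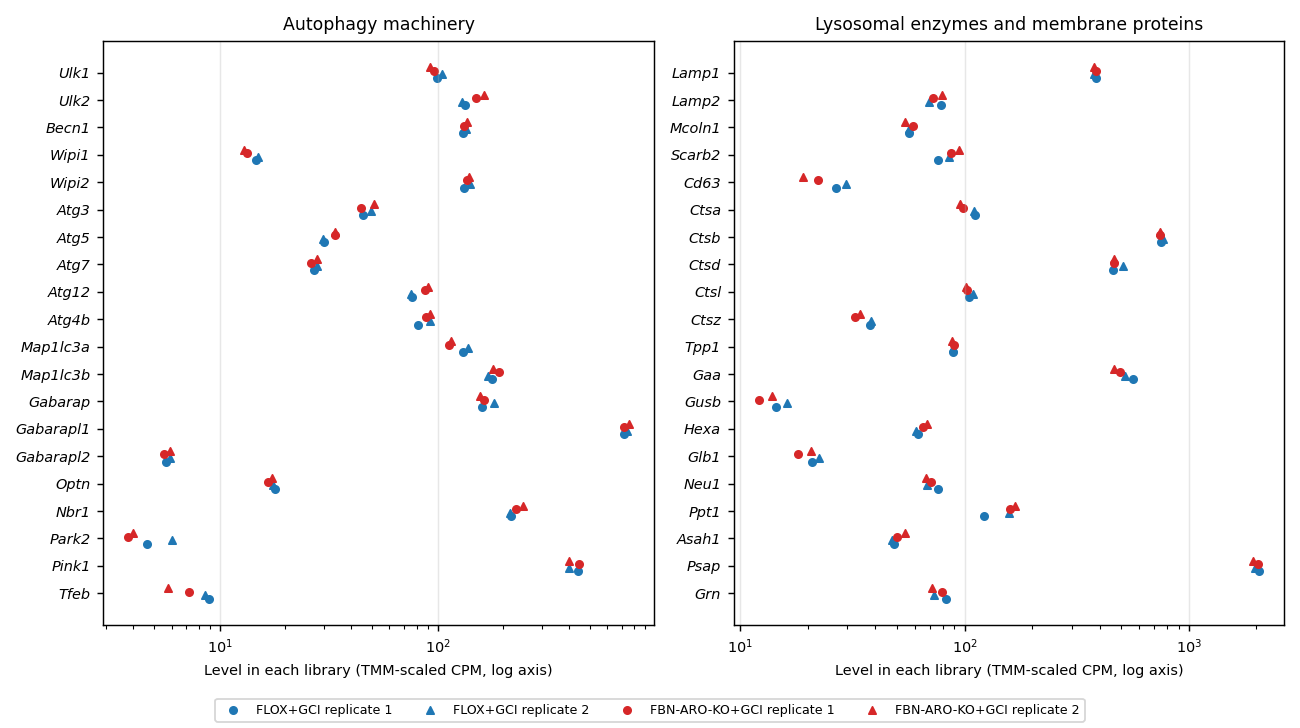
Level of each autophagy (left) and lysosomal (right) gene in each of the 4 libraries, in TMM-scaled CPM on a log axis. Blue symbols are FLOX+GCI and red are FBN-ARO-KO+GCI, with circles for replicate 1 and triangles for replicate 2. For 17 of the 40 genes the colors overlap, and Cd63, Park2 and Tfeb show the widest gaps.

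**Figure D2:**
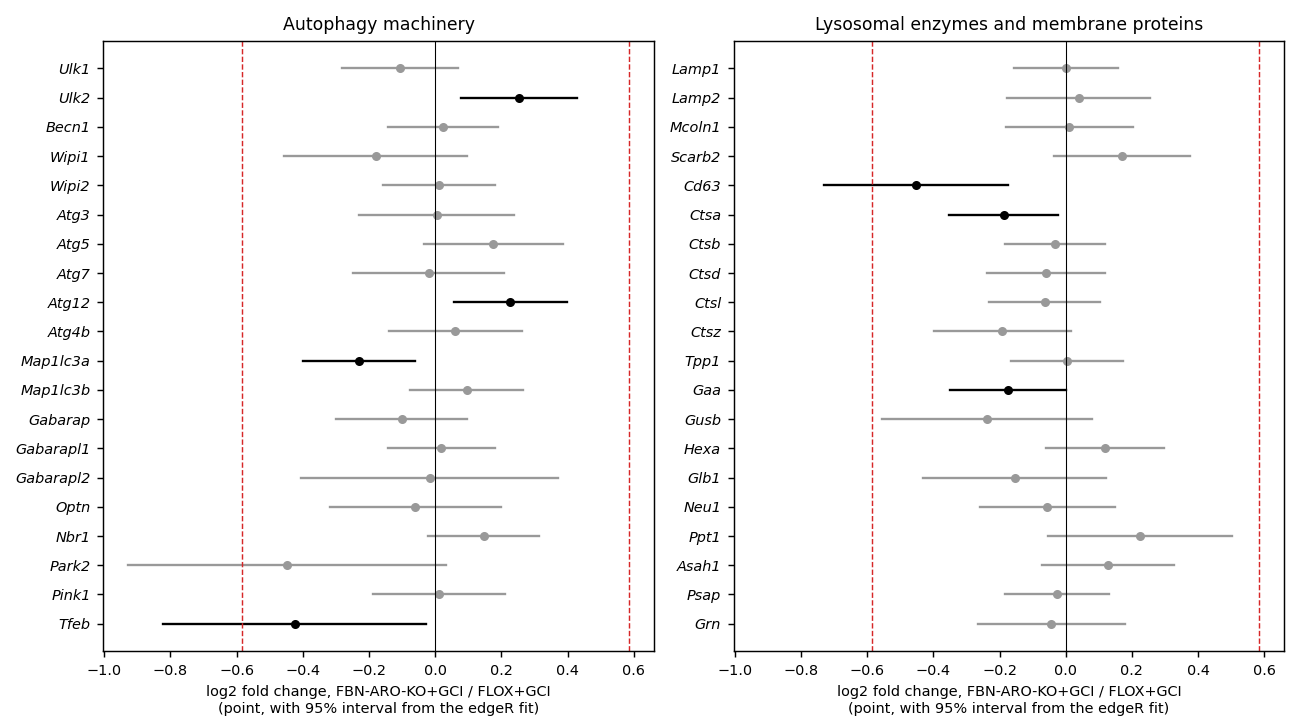
Log2 fold change of each gene between FBN-ARO-KO+GCI and FLOX+GCI, as a point with the 95% interval from the edgeR fit. Black marks the 7 genes with an unadjusted p under 0.05, and the dashed red lines mark 1.5-fold in either direction, which the intervals of Park2, Tfeb and Cd63 cross.

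Among the genes that start an autophagosome, Ulk2 and Ulk1 had opposite signs. Ulk2, one of a pair of related initiating kinases, had 133 and 129.6 CPM in the FLOX libraries and 150.4 and 163 CPM in the FBN-ARO-KO libraries. Both FBN-ARO-KO libraries lay above both FLOX libraries. Its log2 fold change was 0.25 ± 0.075 (SE, edgeR adjusted p of 0.245), with a 95% interval from 5.49% to 34.6%, and 0.14 with the GC trend removed. Ulk1, its partner, had 99.2 and 105 CPM in the FLOX libraries and 96.8 and 92.3 CPM in the FBN-ARO-KO libraries. Its log2 fold change was -0.11 ± 0.075 (SE, edgeR adjusted p of 0.476), and 0.012 once the GC trend was removed. The 57.95% GC content of the Ulk1 transcript compares with 47.0% for Ulk2. Becn1, the scaffold of the lipid kinase complex, had a mean of 133 ± 2.96 CPM (SD, n = 2) in the FLOX libraries and 135 ± 3.4 CPM (SD, n = 2) in the FBN-ARO-KO libraries. Of the WIPI proteins, which read the lipid that this complex makes, Wipi2 had a log2 fold change of 0.011 ± 0.072 (SE) and the scarcer Wipi1 one of -0.18 ± 0.12 (SE). Neither passed an unadjusted p of 0.05.

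The conjugation genes attach ATG8 to lipid. Atg12, the ubiquitin-like partner of ATG5, had 76.5 and 75.3 CPM in the FLOX libraries and 87.5 and 90.1 CPM in the FBN-ARO-KO libraries. The genotypes were separated, with little spread within either. The log2 fold change of Atg12 was 0.23 ± 0.073 (SE, edgeR adjusted p of 0.248), and 0.12 with the GC trend removed. Atg5 (log2 fold change 0.17) was likewise separated, at 29.9 ± 0.137 CPM (SD, n = 2) in the FLOX libraries and 33.7 ± 0.0901 CPM (SD, n = 2) in the FBN-ARO-KO libraries, with an adjusted p of 0.360 in edgeR. With the GC trend removed, the log2 fold change of Atg5 was 0.074. For Atg3 and Atg7, the enzymes that carry ATG8 to its lipid, and Atg4b, the protease that primes it, the libraries overlapped and the log2 fold changes were 0.0041, -0.020 and 0.060. An exact match elsewhere in the genome was found for 32.9% of the 50-base windows of the Atg7 transcript. Reads from such windows would not be unique, so the count of Atg7 is uncertain.

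The ATG8 proteins themselves were measured at very unequal levels. Gabarapl1 had 714 and 741 CPM in the FLOX libraries and 719 and 755 CPM in the FBN-ARO-KO libraries. Its libraries overlapped, with a log2 fold change of 0.019 and an interval from -9.35% to 13.2%. Per kilobase of transcript, Gabarapl1 had a level of 415 CPM, against 122 for Gabarap, 112 for Map1lc3a, 105 for Map1lc3b and 3.44 for Gabarapl2. Of the 50-base windows of Gabarapl2, 49.3% occur elsewhere in the genome, as do 40.4% of those of Map1lc3b and 0 of those of the other 3 ATG8 genes, so the counts of Gabarapl2 and Map1lc3b are uncertain. Map1lc3a, which encodes an LC3 protein, had 130.3 and 138 CPM in the FLOX libraries and 113 and 116 CPM in the FBN-ARO-KO libraries. Both FBN-ARO-KO libraries lay below both FLOX libraries. The log2 fold change of Map1lc3a was -0.23 ± 0.072 (SE, edgeR adjusted p of 0.248), and it turned to 0.092 when the GC trend was removed, its transcript having a GC content of 63.1%. Map1lc3b, the LC3 protein most used as an autophagosome marker, had 178 and 170.2 CPM in the FLOX libraries and 192 and 180.2 CPM in the FBN-ARO-KO libraries. This separates the genotypes narrowly, with a log2 fold change of 0.095 ± 0.073 (SE). Gabarap had 159.8 and 182 CPM in the FLOX libraries and 163 and 156 CPM in the FBN-ARO-KO libraries, and Gabarapl2 had 5.67 and 5.92 CPM in the FLOX libraries and 5.55 and 5.91 CPM in the FBN-ARO-KO libraries. Both overlapped between genotypes.

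Of the cargo receptors, Nbr1 had 217 and 214 CPM in the FLOX libraries and 230.0 and 247 CPM in the FBN-ARO-KO libraries, a log2 fold change of 0.15 ± 0.071 (SE, edgeR adjusted p of 0.345). With the GC trend removed, the log2 fold change of Nbr1 was 0.055. Optn, which binds ubiquitin on mitochondria and aggregates, had a log2 fold change of -0.061 ± 0.11 (SE). Pink1, the kinase that marks damaged mitochondria, had 439.9 and 401 CPM in the FLOX libraries and 447 and 400.4 CPM in the FBN-ARO-KO libraries, so that replicate 1 exceeded replicate 2 in both genotypes and the genotypes overlapped. Its log2 fold change of 0.012 became 0.20 with the GC trend removed. Park2, the ubiquitin ligase parkin that PINK1 recruits, had only 4.63 and 6.0 CPM in the FLOX libraries and 3.80 and 3.99 CPM in the FBN-ARO-KO libraries. The FBN-ARO-KO libraries lay below both others, the nearer FLOX library being replicate 1. Its log2 fold change of -0.45 was the lowest of the autophagy machinery, with a standard error of 0.20 and an adjusted p of 0.322 in edgeR. It ranged from -0.62 to -0.25 with 1 library left out in turn, and was -0.32 with the GC trend removed.

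Tfeb lies at positions 47873979 to 47929368 of chromosome 17 (mm9). It had 8.94 and 8.56 CPM in the FLOX libraries and 7.21 and 5.80 CPM in the FBN-ARO-KO libraries. Both FBN-ARO-KO libraries were below both FLOX libraries. The log2 fold change was -0.43 ± 0.17 (SE, edgeR adjusted p of 0.280), with an interval from -43.4% to -1.99%. With 1 library left out in turn it lay between -0.60 and -0.28. Its transcript had the highest GC content of the 40 genes (63.2%), and with the GC and length trend removed the log2 fold change was -0.16, with an unadjusted p of 0.301. Tfeb also had the lowest level per kilobase of the 40, at 3.26 CPM. Tfe3, a close relative of TFEB that binds the same DNA sequence, had a log2 fold change of -0.17 (adjusted p = 0.427 in edgeR), and -0.031 with the trend removed. Mitf, another relative, had 0.17, and -0.00074 with the trend removed. Unlike Tfeb, Tfe3 and Mitf were listed among the further lysosomal genes.

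Because TFEB acts through the palindrome CACGTG (an E-box) and its extended form TCACGTGA, found in the element that coordinates lysosomal genes, promoters were searched for these letters. The windows, from RefSeq on GRCm38.p6, span 250 bases before to 50 bases after each transcript start, and 34 of the 40 genes had one. Each motif reads the same on both strands, and the shorter lies within the longer. The 6-base E-box was present for 7 of 18 lysosomal genes (38.9%) and 3 of 16 autophagy genes (18.8%), against 8.09% of 27025 genes with a window. The 8-base form was present for 3 lysosomal genes (16.7%) and 1 autophagy gene (6.25%), against 1.12% of all genes. A 10-base form, which adds a G before and a C after those 8 letters, was found in 0 of the 34 and in 0.37% of all genes. The windows below show the 8-base form in Mcoln1, Ctsa, Ctsd and Atg3, and the 6-base form in Lamp1, Gaa and Glb1, in 30 bases each with the motif in capitals, 5′ to 3′ on the strand of the gene.
Mcoln1 (chr8:3500462-3500491, + strand): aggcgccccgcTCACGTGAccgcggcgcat
Ctsa (chr2:164833749-164833778, + strand): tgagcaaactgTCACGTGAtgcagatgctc
Ctsd (chr7:142387908-142387937, - strand): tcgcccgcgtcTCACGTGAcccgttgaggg
Atg3 (chr16:45158746-45158775, + strand): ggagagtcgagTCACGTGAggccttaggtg
Lamp1 (chr8:13159088-13159117, + strand): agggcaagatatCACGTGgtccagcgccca
Gaa (chr11:119267811-119267840, + strand): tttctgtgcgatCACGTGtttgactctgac
Glb1 (chr9:114401018-114401047, + strand): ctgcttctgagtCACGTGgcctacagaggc
Lamp1 held 4 E-boxes in its window, the first of them shown. Between genotypes, the log2 fold changes of the 10 genes with an E-box were 0.011 for Mcoln1, -0.19 for Ctsa, -0.060 for Ctsd, 0.0041 for Atg3, 0.00061 for Lamp1, -0.18 for Gaa, -0.15 for Glb1, 0.17 for Atg5, -0.020 for Atg7 and -0.064 for Ctsl.

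**Figure D3:**
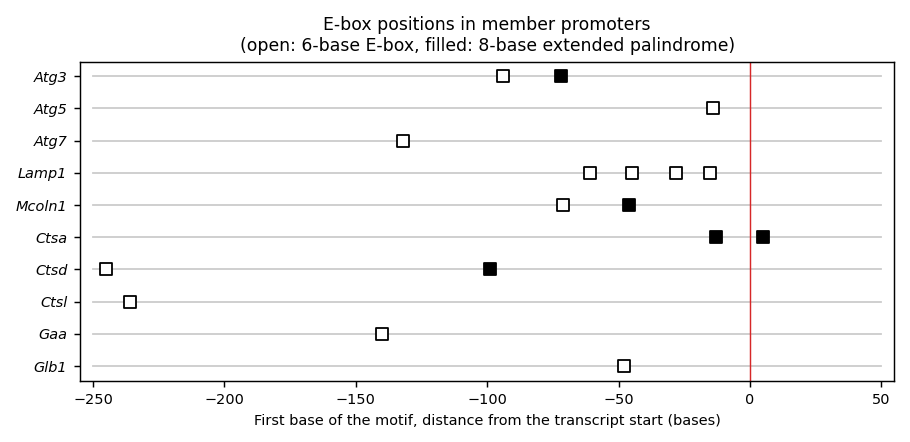
Position of E-boxes in the promoter windows of the 10 genes that hold at least 1, as the distance in bases of the motif's first base from the transcript start (red line). Open squares are the 6-base form and filled squares the 8-base form. Lamp1 holds 4, all upstream of the start.

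Of the lysosomal membrane proteins, Cd63 stood lowest. Cd63, at positions 128345975 to 128349872 of chromosome 10 (mm9), encodes a tetraspanin of late endosomes, lysosomes and exosomes. It had 26.8 and 29.6 CPM in the FLOX libraries and 22.1 and 19.1 CPM in the FBN-ARO-KO libraries. The genotypes were separated by more than the gap within either. The log2 fold change was -0.45 ± 0.12 (SE), with an interval from -39.7% to -11.4%, and the adjusted p of 0.238 in edgeR was the smallest among the 40 genes. It lay between -0.57 and -0.35 with 1 library left out in turn, and at -0.41 with the GC trend removed. Cd63 and Ulk2 were the only 2 of the 7 genes that kept an unadjusted p under 0.05 after that correction, at -0.41 and 0.14. However, 43.5% of the 50-base windows of the Cd63 transcript have an exact match elsewhere in the genome, so its count rests on the remaining part. Lamp1, the most abundant protein of the lysosomal membrane, had 385 and 377 CPM in the FLOX libraries and 386 and 376 CPM in the FBN-ARO-KO libraries, a log2 fold change of 0.00061 ± 0.066 (SE). Its interval ran from -10.2% to 11.5%. Lamp2, which also serves chaperone-mediated autophagy, and Mcoln1, the calcium channel of the lysosome, overlapped between genotypes with log2 fold changes of 0.039 and 0.011. Scarb2, the receptor that delivers glucocerebrosidase, had 76.3 and 85.4 CPM in the FLOX libraries and 87.5 and 94.6 CPM in the FBN-ARO-KO libraries (log2 fold change 0.17, adjusted p = 0.364 in edgeR).

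Of the 6 lysosomal proteases, Ctsa, Ctsb, Ctsl and Ctsz were lower in both FBN-ARO-KO libraries than in either FLOX library, and Ctsd and Tpp1 overlapped. Of all tested genes, 25.8% were lower in this way. For Ctsb the log2 fold change was only -0.033. Ctsa, a carboxypeptidase that also protects the sialidase NEU1, had 111 and 110.1 CPM in the FLOX libraries and 98.5 and 95.8 CPM in the FBN-ARO-KO libraries. The genotypes were separated, with a log2 fold change of -0.19 ± 0.070 (SE, edgeR adjusted p of 0.267) that became -0.12 with the GC trend removed. Ctsa overlaps Neurl2 and Pltp on the opposite strand, and whether strand was used in counting is not given in the sources used here, so reads of these genes cannot be told apart. Ctsz was separated in the same way, at 38.2 ± 0.187 CPM (SD, n = 2) in the FLOX libraries and 33.4 ± 1.2 CPM (SD, n = 2) in the FBN-ARO-KO libraries, and its log2 fold change of -0.19 became -0.0026 with the trend removed. The abundant cathepsins stood at 762 ± 10.8 CPM (SD, n = 2) in the FLOX libraries and 745 ± 4.18 CPM (SD, n = 2) in the FBN-ARO-KO libraries for Ctsb, and at 484 ± 35.0 and 464 ± 1.09 CPM (SD, n = 2 each) for Ctsd, the main aspartic protease. Ctsl and Tpp1, the peptidase lost in a childhood ceroid lipofuscinosis, had log2 fold changes of -0.064 and 0.0039. None of these 4 had an unadjusted p under 0.05.

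The glycosidases trim sugars from glycogen, glycolipids and glycoproteins. Gaa, the acid glucosidase that digests glycogen, had 561 and 521 CPM in the FLOX libraries and 495 and 464 CPM in the FBN-ARO-KO libraries. The genotypes were separated, but the gap between the nearest libraries was smaller than that within either genotype. The log2 fold change was -0.18 ± 0.075 (SE, edgeR adjusted p of 0.302) and became 0.0075 with the GC trend removed, its transcript having 59.5% GC. Gusb and Glb1 had log2 fold changes of -0.24 ± 0.14 (SE) and -0.15 ± 0.12 (SE), and Neu1 one of -0.056. With the trend removed, these were -0.21 for Gusb, -0.038 for Glb1 and 0.090 for Neu1. Hexa, the alpha subunit of beta-hexosaminidase, had 61.8 and 61.0 CPM in the FLOX libraries and 65.5 and 67.7 CPM in the FBN-ARO-KO libraries, the only glycosidase of the 5 with a higher value (log2 fold change 0.12, adjusted p = 0.445 in edgeR).

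Ppt1, a lipid hydrolase that removes palmitate from proteins, had 123 and 158 CPM in the FLOX libraries and 160.0 and 168 CPM in the FBN-ARO-KO libraries. FLOX replicate 1 stood apart from the other 3 libraries. The log2 fold change of 0.22 ± 0.12 (SE, edgeR adjusted p of 0.376) was the highest of the lysosomal genes and was 0.052 without that library. Asah1, the acid ceramidase, had a log2 fold change of 0.13 ± 0.085 (SE). Psap, the precursor of the saposins that present lipids to their hydrolases, was the most abundant of the 40 genes both in CPM and per kilobase. It had 2065 and 1975 CPM in the FLOX libraries and 2037 and 1929 CPM in the FBN-ARO-KO libraries, so that the genotypes overlapped, with an interval from -12.0% to 9.52%. Grn, for progranulin, had 83.0 and 73.2 CPM in the FLOX libraries and 79.6 and 71.9 CPM in the FBN-ARO-KO libraries, again overlapping.

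Removing the trend over GC content and length changed which genes stood out. The sign of the log2 fold change turned for 14 of the 40 genes, and 7 again had an unadjusted p under 0.05, where 9.97% of all tested genes did. These were Ulk2, Pink1, Scarb2 and Hexa with higher values and Lamp2, Cd63 and Ctsl with lower values in the FBN-ARO-KO libraries. Lamp2, whose transcript had the lowest GC content of the 40 (38.7%), went from 0.039 to -0.21 on the log2 scale. The corrected log2 fold changes of the 40 genes lay between -0.41 and 0.22, and their medians were 0.031 for the autophagy machinery and 0.0025 for the lysosome.

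**Figure D4:**
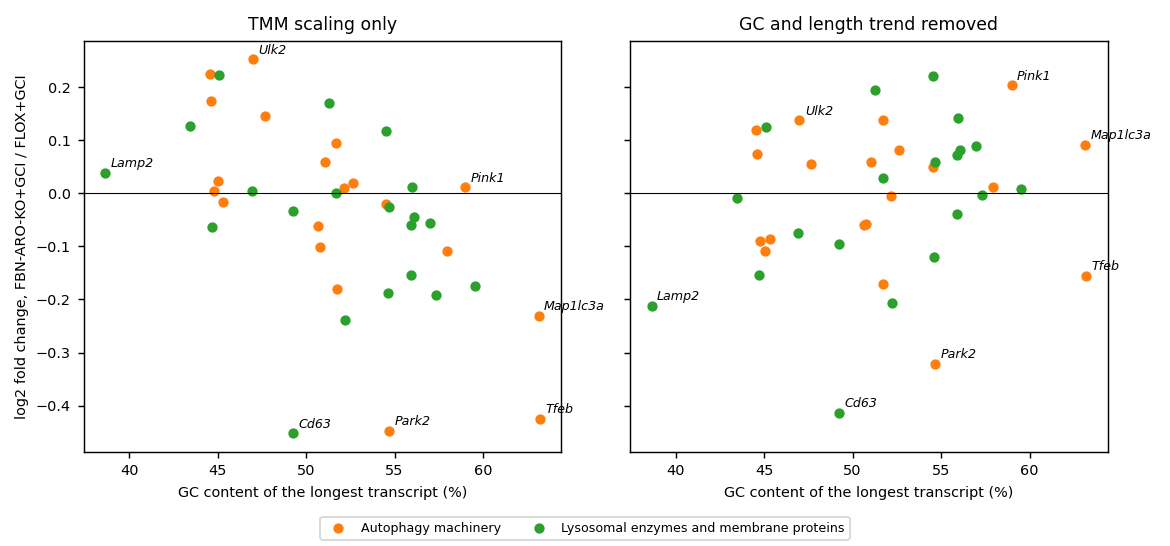
Log2 fold change between FBN-ARO-KO+GCI and FLOX+GCI of the 40 genes against the GC content of the longest transcript, before (left) and after (right) the correction for GC content and length. Orange points are autophagy genes and green points lysosomal genes. GC-rich Map1lc3a moves from -0.23 to 0.092 and AT-rich Lamp2 from 0.039 to -0.21, while Cd63 moves only from -0.45 to -0.41.

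A further 123 genes of the same route were listed by role, of which 122 could be tested. None had an adjusted p under 0.05 in edgeR, and 13 had an unadjusted p under 0.05 (10.7%, against 16.5% of all genes tested). Among 40 further autophagy genes these were 4 with higher values and none with lower values, and among 82 lysosomal genes 1 with a higher value and 8 with lower values, where 8.72% of all tested genes were higher and 7.82% lower at that p. With the GC and length trend removed, 4 of the 122 had an unadjusted p under 0.05, where 9.97% of all tested genes did. These were Calcoco1 and Lamtor2 with higher and Dnase2a and Cln3 with lower values. Of the genes with such a p before, none of the 5 higher and 2 of the 8 lower were still among them. Of the higher ones, Rb1cc1, the scaffold of the ULK complex, had 84.2 and 81.9 CPM in the FLOX libraries and 93.1 and 111 CPM in the FBN-ARO-KO libraries, and its log2 fold change of 0.30 became 0.0080 with the GC trend removed. Retreg1, a receptor for autophagy of the endoplasmic reticulum, had a log2 fold change of 0.34, Atg4c 0.27, Snap29 0.23 and the sorting receptor Sort1 0.18, with adjusted p-values in edgeR between 0.248 and 0.283 for these 5 genes. With the trend removed these were 0.21 for Retreg1, 0.14 for Atg4c, 0.13 for Snap29 and 0.13 for Sort1. Of the lower ones, Dnase2a, the acid nuclease, had 5.67 and 4.62 CPM in the FLOX libraries and 3.14 and 2.73 CPM in the FBN-ARO-KO libraries, a log2 fold change of -0.81 ± 0.21 (SE, edgeR adjusted p of 0.238) and of -0.72 with the GC trend removed. Cd68, a lysosomal membrane protein of phagocytes, had 8.26 and 9.57 CPM in the FLOX libraries and 5.76 and 7.0 CPM in the FBN-ARO-KO libraries, a log2 fold change of -0.48 (adjusted p = 0.255 in edgeR), and -0.39 with the trend removed. Naglu, Hyal2 and Sgsh, which break down glycosaminoglycans, had log2 fold changes of -0.48, -0.42 and -0.37, with adjusted p-values in edgeR between 0.264 and 0.277, and -0.29, -0.23 and -0.27 with the trend removed. The subunits of the proton pump that acidifies the lysosome had a median log2 fold change of 0.014 over 16 tested, 1 of them, Atp6v0b with a log2 fold change of -0.21, at an unadjusted p under 0.05. The listed subunit that could not be tested, Atp6v0c, had only 0 and 0 counts in the FLOX libraries and 1 and 2 in the FBN-ARO-KO libraries. Matches of its transcript elsewhere in the genome were not sought. Whether its RNA was absent or its reads were set aside as not unique was not tested. Sqstm1, the receptor p62, had a log2 fold change of -0.12 ± 0.066 (SE).

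**Figure D5:**
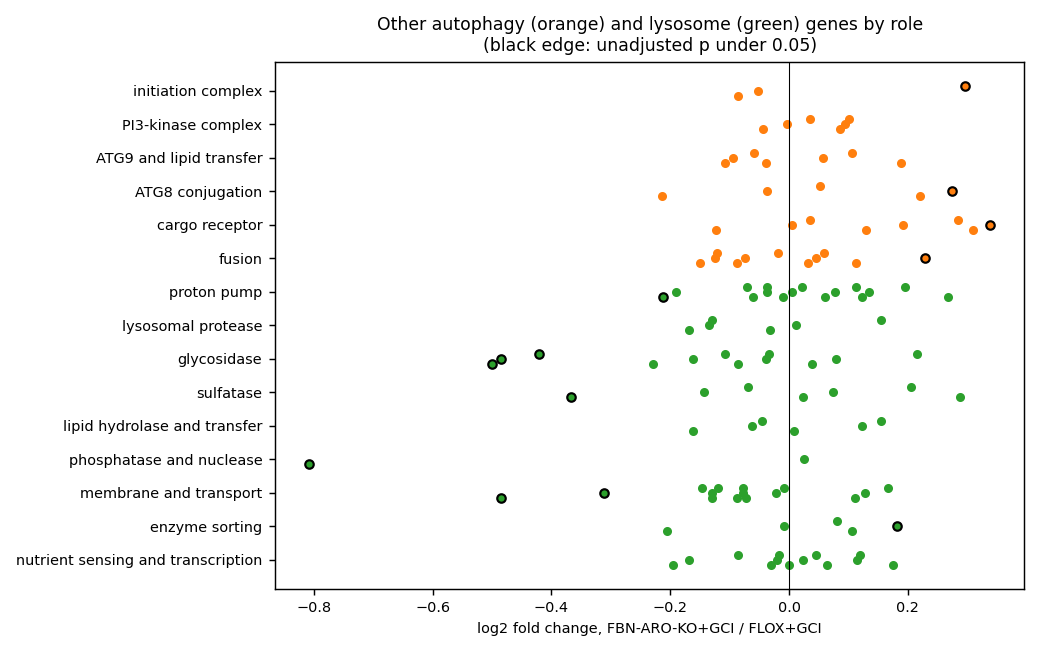
Log2 fold change between FBN-ARO-KO+GCI and FLOX+GCI of the other 122 genes of the route that could be tested, by role, with autophagy genes in orange and lysosomal genes in green. A black edge marks the 13 genes with an unadjusted p under 0.05, of which 8 lysosomal genes, Dnase2a at -0.81 lowest, lie to the left of 0.

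Lysosomal genes are expressed at different levels in different brain cells, and in whole tissue fewer cells of a type and less RNA per cell cannot be told apart. The 6 neuron markers summed to 11680 and 11523 CPM for FLOX against 11858 and 12484 CPM for FBN-ARO-KO, without overlap. Of the 6, 2 had an unadjusted p under 0.05, Snap25 higher (log2 fold change 0.20) and Rbfox3 lower (-0.17). Such a p was found for 16.5% of all tested genes. The 5 oligodendrocyte markers summed to 3725 and 4197 CPM for FLOX against 4223 and 4365 CPM for FBN-ARO-KO, also without overlap, with 0 of 5 at that p. The 7 microglia markers summed to 309.7 and 302 CPM in the FLOX libraries and 288 and 320.4 CPM in the FBN-ARO-KO libraries, with 0 of 7 at an unadjusted p under 0.05 and none at 0 counts. The 6 astrocyte markers summed to 4733 and 4986 CPM in the FLOX libraries and 4934 and 5658 CPM in the FBN-ARO-KO libraries, with 2 of 6 at an unadjusted p under 0.05, Slc1a2 higher (log2 fold change 0.21) and Aldh1l1 lower (-0.30). Slc1a2 had the highest level of the 6, with a mean of 3069 CPM for FLOX and 3540 CPM for FBN-ARO-KO. Gfap had 396 and 900 CPM for FLOX and 502 and 560 CPM for FBN-ARO-KO. Its FLOX libraries thus lay on either side of both FBN-ARO-KO libraries (log2 fold change -0.29 ± 0.32, SE). The 4 endothelial markers summed to 163 and 112 CPM in the FLOX libraries and 129 and 91.8 CPM in the FBN-ARO-KO libraries. None of these 4 had an unadjusted p under 0.05. Of 4 choroid plexus markers, Ttr was lower (26.5 and 21.9 CPM for FLOX, 8.93 and 15.6 CPM for FBN-ARO-KO, log2 fold change -0.98, adjusted p = 0.238 in edgeR), while Folr1, Kl and Clic6 had log2 fold changes of 0.20 ± 0.51, 0.094 ± 0.12 and 0.24 ± 0.32 (SE). Folr1 had only 10 to 21 counts in a library and Clic6 27 to 43, so their values are imprecise. Of 3 erythroid markers Hbb-b1 and Hba-a1 were at 0 counts in all libraries while Alas2 was lower (log2 fold change -0.81, adjusted p = 0.248 in edgeR). Matches of Hbb-b1 and Hba-a1 elsewhere in the genome were not sought. Whether their RNA was absent or their reads were set aside as not unique was not tested. With the GC and length trend removed, the log2 fold changes were 0.079 for Snap25, -0.0014 for Rbfox3, 0.064 for Slc1a2 and -0.25 for Aldh1l1. Those of Cnp, Ttr and Alas2 were 0.22, -1.02 and -0.74. Of the markers in this paragraph, Aldh1l1, Cnp, Ttr and Alas2 then had an unadjusted p under 0.05, where 9.97% of all tested genes did. The part of these cell types in the values of Cd63, Cd68 and Dnase2a was not tested.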

How the data were processed

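Per the labels and the methods, the authors sequenced 50 nt single-end reads of hippocampal RNA, aligned them to mm9 (TopHat2 2.0.8b per the submitters' processing notes) and counted them per gene symbol with HTSeq, and the deposited values are raw counts with no normalization. The HTSeq version, strand setting and annotation release are not given in the sources used here. The 5 HTSeq counters of unassigned alignments (43.4% to 45.5% of each total) were left out. At these depths a limit of 3 counts is 0.0907 to 0.123 CPM, which covers counting error only.

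The main test was edgeR's quasi-likelihood F test (edgeR 4.0.16, R 4.3.3, TMM, filterByExpr with a minimum count of 10, Benjamini-Hochberg adjustment over all 14527 genes). Standard errors were taken as the size of the log2 fold change over the root of F, and 95% intervals used the degrees of freedom of the fit. Values per library are TMM-scaled CPM. Positions, GC content and length of the longest coding transcript came from GENCODE M1 on NCBIM37, the build of mm9. Each transcript was cut into 50-base windows, whose exact matches were sought in that genome. Of the 40 genes, 12 overlap another annotated gene and are uncertain to that extent (Becn1, Atg4b, Map1lc3a, Map1lc3b, Gabarapl1, Optn, Lamp1, Ctsa, Ctsb, Ctsd, Ctsz and Ppt1).

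The members and lists were chosen with earlier results of these data known. The text names every member and, of the other genes of the route, up to 5 in each direction with the smallest unadjusted p, plus Sqstm1, Tfe3, Mitf, Calcoco1, Lamtor2, Cln3, Atp6v0b and Atp6v0c, chosen after their values were seen. Alternatives were DESeq2 1.42.0, DESeq-style size factors, library totals, no filter, the replicate number as a block, an offset for GC content and length (natural splines, 5 degrees of freedom, prior count 2), both together, and each library left out.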

Additional observations from a re-analysis of the deposited data

How the results depend on the processing

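No alternative gave any of the 40 genes an adjusted p under 0.05, while the count over all genes was 287 with DESeq2, 184 with the replicate block, 193 and 127 without FLOX replicate 1 and 2, 0 without either FBN-ARO-KO library, and 2 to 5 under the others. DESeq2, DESeq-style size factors, testing every gene with at least 1 count, and the replicate number as a block kept the sign of all 40. The numbers are shared only as labels (deviations of same-numbered libraries correlated at 0.129). With the replicate block the unadjusted calls were 4 for the autophagy machinery and 2 for the lysosome, beside 17.5% of all genes. The medians were 0.007 and -0.038. The block took Ctsa (unadjusted p from 0.0307 to 0.0691) and Gaa (0.0496 to 0.0647) past 0.05 and brought Ppt1 under it (0.100 to 0.0338). With library totals only, the median of all genes moved to -0.043, that of the lysosome to -0.074, and log2 fold changes near 0 turned: Becn1 -0.013, Wipi2 -0.026, Atg3 -0.033, Gabarapl1 -0.018, Pink1 -0.023, Lamp1 -0.035, Mcoln1 -0.024 and Tpp1 -0.032. With the GC and length correction the unadjusted calls were 2 for the autophagy machinery and 5 for the lysosome, beside 9.97% of all genes. The lysosome median was 0.002. With the correction and the replicate block the autophagy count was 1, beside 10.5% of all genes. The lysosome median was then 0.001, and Ulk2 no longer passed (unadjusted p 0.0754). Without and with the block, the corrected log2 fold changes that turned were 0.012 and 0.012 for Ulk1, -0.108 and -0.108 for Becn1, -0.006 and -0.005 for Wipi2, -0.089 and -0.088 for Atg3, 0.050 and 0.048 for Atg7, 0.092 and 0.090 for Map1lc3a, -0.212 and -0.212 for Lamp2, 0.072 and 0.072 for Ctsd, -0.074 and -0.075 for Tpp1, 0.008 and 0.008 for Gaa, 0.090 and 0.092 for Neu1, -0.008 and -0.008 for Asah1, 0.059 and 0.060 for Psap, and 0.082 and 0.084 for Grn. The correction removes the trend by construction; whether that trend is technical was not tested. With 1 library left out in turn, the lone library is assumed to vary like the others. Medians then ranged from -0.039 to 0.027 for the autophagy machinery and from -0.065 to 0.008 for the lysosome. The 16 genes whose sign turned ranged from -0.002 to 0.046 (Becn1), -0.032 to 0.052 (Wipi2), -0.093 to 0.095 (Atg3), -0.065 to 0.022 (Atg7), -0.022 to 0.146 (Atg4b), -0.016 to 0.052 (Gabarapl1), -0.061 to 0.024 (Gabarapl2), -0.074 to 0.091 (Pink1), -0.021 to 0.020 (Lamp1), -0.047 to 0.128 (Lamp2), -0.053 to 0.071 (Mcoln1), -0.130 to 0.013 (Ctsd), -0.019 to 0.025 (Tpp1), -0.138 to 0.029 (Neu1), -0.070 to 0.014 (Psap) and -0.134 to 0.052 (Grn). Why these turned was not tested.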
